A study of Mus musculus with 9 samples.

Results

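TrkC:GFP sensory neurons were compared, gene by gene, with PV:tdT sensory neurons of Runx3 mutants, both sorted by fluorescence from dorsal root ganglia of neonatal mice and measured by bulk RNA-seq. The genes described are those with a deposited RPKM (reads scaled by gene length and by library depth) of 1 or more in either group, which kept 13162 of the 23038 genes of the authors' comparison table. The label of the comparison was checked against 4 markers, Whrn, Ntrk3, Ret and Ntrk2, whose values come first among the results below. A further group, Rx3+/+;PV:tdT, is given beside these where it helps to place a gene.

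The TrkC:GFP animals carried a bacterial artificial chromosome (BAC) transgene that expresses GFP under the control of Ntrk3, the gene of the neurotrophin receptor TrkC. Per the labels, the sorted cells were proprioceptors and SA-LTMRs, the low-threshold mechanoreceptors that adapt slowly; the labels name no Runx3 allele for them. The Rx3+/+;PV:tdT and Rx3-/-;PV:tdT animals both carried Cre driven by the parvalbumin gene (PV:Cre) and a Cre-dependent tdTomato reporter, named Ai14 in the genotype labels and Ai9 in the design text. Rx3+/+;PV:tdT neurons, from animals wild-type for Runx3, are labelled proprioceptors and RA-LTMRs, which adapt rapidly. Rx3-/-;PV:tdT neurons came from animals with both Runx3 copies mutated, in which proprioceptors are lost, and are labelled RA-LTMRs. These groups are called TrkC:GFP, wild-type PV and mutant below. Each had 3 samples, on a mixed C57/Sv129 background and from both sexes. The TrkC:GFP samples held 4, 2 and 4 animals at postnatal days 6, 2 and 1. The wild-type PV samples held 4, 3 and 3 animals at days 6, 4 and 3, and the mutant samples held 1, 1 and 4 animals at days 3, 0 and 0. The labelled cell types, the reporter and the mean age (day 3.0 in TrkC:GFP, day 1.0 in the mutants) differ between TrkC:GFP and the mutants. So does Runx3 as far as the labels name it, with a mutation given for the mutants alone. These differences cannot be told apart here.

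Low-threshold mechanoreceptors are the sensory neurons of touch, and proprioceptors are those that report muscle stretch and tension. Proprioceptors depend on TrkC and its ligand neurotrophin-3 and need the transcription factor Runx3. RA-LTMRs respond to the onset and offset of touch and to vibration, and many of them express the receptor tyrosine kinase Ret early, together with the transcription factors Maf and Mafa. SA-LTMRs fire throughout a touch. The comparison therefore sets proprioceptors with SA-LTMRs in one group against RA-LTMRs in the other.

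The deposited tables give a single RPKM per gene and group. The reads of each library could be recovered from it for 12927 of the 13162 genes (98.2%), because the group value is a mean over libraries of whole reads. The other 235 genes all had an RPKM of at least 25.4 in some group, and for them the group values of the authors' deposited table are given. Depth orders the libraries of a group, but no replicate number, day or litter can be given to any of them, so values in threes below are always those of the deepest, the middle and the shallowest library of a group. The libraries held 12225112, 10536972 and 7779765 counted reads in TrkC:GFP, 13737224, 12150764 and 11567681 in wild-type PV, and 12847709, 12171315 and 4510352 in the mutants. Over the recovered genes, the root mean square difference of log2(RPKM + 1) was 0.735 to 0.813 between a TrkC:GFP and a mutant library. It was 0.41 to 0.475 among the TrkC:GFP libraries and 0.532 to 0.597 among the mutant libraries. Every pair across the groups was thus farther apart than any pair within a group. Whether the samples shared litters or sorting days is not given, so a p-value speaks only of how far these samples spread.

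The 4 markers separated the groups in every library. Whrn encodes whirlin, a scaffold protein known from stereocilia of the inner ear and used as a proprioceptor marker. It was at 4.77, 8.81 and 6.86 RPKM in TrkC:GFP, against 0.0796, 0.185 and 0 RPKM in the mutants. Ntrk3 was at 150.4, 142 and 130.0 RPKM in TrkC:GFP, against 17.4, 16.4 and 42.3 RPKM in the mutants. No mutant library reached the level of any TrkC:GFP library for either gene, although Ntrk3 was well above 0 in all 3 mutant libraries and highest in the shallowest. In the opposite direction, Ret was at 11.5, 15.7 and 6.83 RPKM in TrkC:GFP, against 206, 179 and 248 RPKM in the mutants. Ntrk2, the gene of the neurotrophin receptor TrkB, was at 5.04, 1.36 and 2.68 RPKM in TrkC:GFP, against 55.9, 74.5 and 45.8 RPKM in the mutants. Ret and Ntrk2 were thus low in all 3 TrkC:GFP libraries and high in all 3 mutant libraries, and the groups did not overlap. In the authors' deposited table the log2 fold changes of TrkC:GFP over mutants were 5.81 (edgeR adjusted p = 3.8e-31) for Whrn and 2.47 (edgeR adjusted p = 9.9e-13) for Ntrk3. There they were -4.21 (edgeR adjusted p = 1.7e-42) for Ret and -4.27 (edgeR adjusted p = 1.2e-24) for Ntrk2. On the recovered reads, limma with voom gave 6.23 ± 0.91 for Whrn, 2.71 ± 0.25 for Ntrk3, -4.26 ± 0.23 for Ret and -4.45 ± 0.35 for Ntrk2 (log2 fold change ± SE, n = 3 libraries a group). Whrn had a limma log2 fold change of 6.23 with all libraries, 6.93 without the middle mutant library.

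Runx3, the mutated gene, had reads in every mutant library. It was at 32.1, 34.1 and 35 RPKM in TrkC:GFP, against 12.5, 16.6 and 11.3 RPKM in the mutants, with no overlap between the groups, and the reads are summed over the whole gene, so they do not show whether the mutated part was read. Pvalb, which encodes the calcium buffer parvalbumin and drives Cre in the PV:tdT lines, was at 312, 401 and 346 RPKM in TrkC:GFP, against 93.4, 70.00 and 37.1 RPKM in the mutants. The TrkC:GFP libraries were thus the higher ones also for the gene used to sort the other group. Log2 fold changes in the authors' deposited table were 1.32 (edgeR adjusted p = 3.9e-08) for Runx3 and 2.39 (edgeR adjusted p = 1.4e-14) for Pvalb. Etv1, an ETS transcription factor expressed by proprioceptors and by some RA-LTMRs, was at 402 RPKM in TrkC:GFP and 180.2 RPKM in the mutants in the authors' deposited table, with a log2 fold change of 1.16 (edgeR adjusted p = 2.4e-06). Maf and Mafa, the factors known from RA-LTMRs, lay on the other side. Maf was at 5.61, 5.37 and 5.01 RPKM in TrkC:GFP, against 30.8, 25.8 and 36.3 RPKM in the mutants. Mafa had no read in any TrkC:GFP library and was at 4.04, 4.41 and 6.36 RPKM in the mutant libraries, which is at least 49.99-fold lower in TrkC:GFP. That bound sets the pooled reads of the mutants, scaled to depth, against a floor of 3 reads over the 3 TrkC:GFP libraries and covers counting error only. All 10 genes of the list of identity and sorting genes were called, 5 in each direction, where 15.3% of the 13162 genes were called. A gene counts as called where the deposited edgeR adjusted p (Benjamini-Hochberg over the whole table) is under 0.05. The list holds the genes by which such neurons are told apart, so its count says nothing beyond the identity of the groups.

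**Figure D1:**
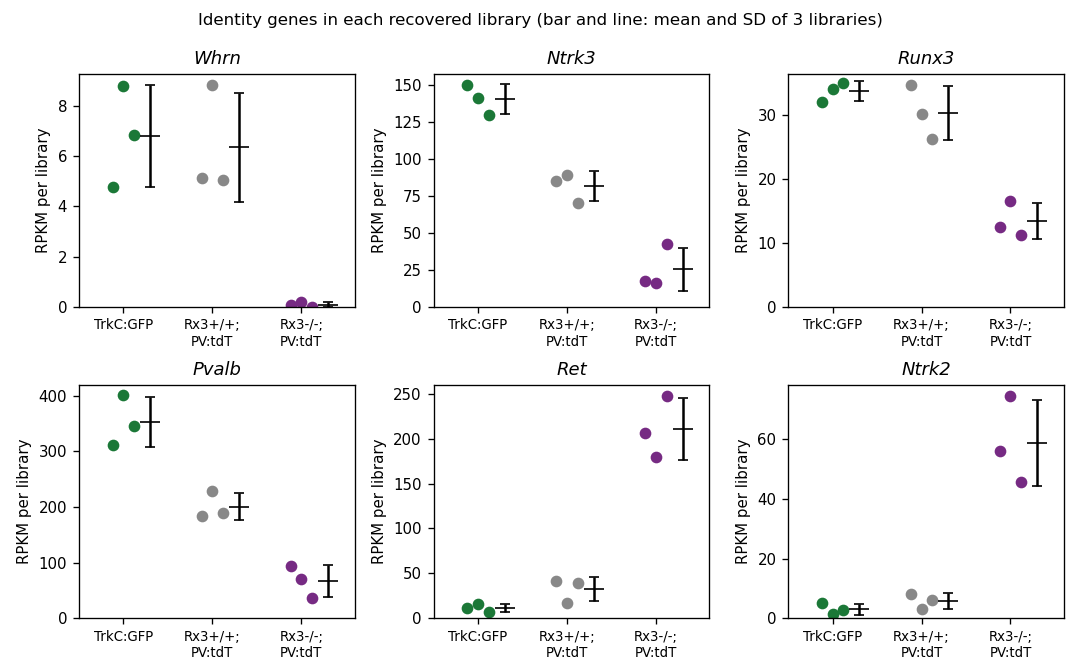
RPKM of the 4 markers, Runx3 and Pvalb in each recovered library of TrkC:GFP, wild-type PV (Rx3+/+;PV:tdT) and mutants (Rx3-/-;PV:tdT), on linear axes from 0. Points are libraries from the deepest to the shallowest and the bars give mean and SD of 3 libraries. For all 6 genes the TrkC:GFP and mutant points do not overlap, and Ret and Ntrk2 are the 2 genes that are lower in TrkC:GFP.

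A noncoding gene beside Ntrk3 set TrkC:GFP apart from both other groups. E430016F16Rik lies on chromosome 7 at chr7:78581066-78718220 on the minus strand (RefSeq annotation of GRCm38.p6), 31 bases upstream of the RefSeq Ntrk3 gene at chr7:78179986-78581034 on the same strand. GENCODE vM21 gives this interval to Ntrk3 itself, at chr7:78175959-78738012. E430016F16Rik was at 32, 34.2 and 47 RPKM in the TrkC:GFP libraries, 0.858, 0.929 and 1.24 RPKM in the wild-type PV libraries and 0.0976, 0.165 and 0.945 RPKM in the mutant libraries. No library of either PV:tdT group came near a TrkC:GFP library. Its log2 fold change in the authors' deposited table was 6.76 (edgeR adjusted p = 7.7e-39) in TrkC:GFP over mutants and -5.2 (edgeR adjusted p = 1e-104) in wild-type PV over TrkC:GFP. E430016F16Rik had a limma log2 fold change of 7.47 with all libraries, 8.08 without the shallowest mutant library. The authors' deposited table gave Ntrk3 a log2 fold change of -0.79 (edgeR adjusted p = 3.6e-05) in wild-type PV over TrkC:GFP. The next genes beyond it, Mrpl46 and Mrps11 (chosen after their values were seen), encode mitochondrial ribosomal proteins. Mrpl46 was at 18.4, 20.8 and 20.2 RPKM in TrkC:GFP, wild-type PV and mutants of the authors' deposited table, and Mrps11 at 8.93, 8.75 and 8.22 RPKM, and neither was called in any of these comparisons. The TrkC:GFP animals carry a BAC with Ntrk3 sequence, and the sources used here do not give its ends. Its part in the reads of E430016F16Rik and Ntrk3 was not tested.

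The labels name a Runx3 mutation for the mutants alone, so the promoters of 4 called genes are shown with the Runx core motif. They are the promoters of Whrn and Vstm2b, higher in TrkC:GFP, and of Ntng1 and Ntrk2, lower in TrkC:GFP, chosen after seeing their values and among genes with an entry in the RefSeq promoter table (GRCm38.p6, 250 bases before to 50 bases after a gene start). Each reads 5′ to 3′ on the gene's strand, and capitals mark TGTGGT or TGCGGT or their reverse complements.
Whrn, chr4:63495942-63496241, minus strand: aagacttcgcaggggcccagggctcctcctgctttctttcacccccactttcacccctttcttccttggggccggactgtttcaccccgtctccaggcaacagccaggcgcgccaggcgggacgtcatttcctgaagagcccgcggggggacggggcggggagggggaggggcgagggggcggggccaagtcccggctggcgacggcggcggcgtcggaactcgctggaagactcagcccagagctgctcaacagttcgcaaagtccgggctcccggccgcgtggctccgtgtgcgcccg
Vstm2b, chr7:40899028-40899327, plus strand: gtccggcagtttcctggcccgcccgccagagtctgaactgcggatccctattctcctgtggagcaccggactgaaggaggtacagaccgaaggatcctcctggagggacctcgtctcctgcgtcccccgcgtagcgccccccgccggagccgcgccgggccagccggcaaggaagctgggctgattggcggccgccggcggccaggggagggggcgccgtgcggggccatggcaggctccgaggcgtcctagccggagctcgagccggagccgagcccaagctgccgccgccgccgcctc
Ntng1, chr3:110143423-110143722, minus strand: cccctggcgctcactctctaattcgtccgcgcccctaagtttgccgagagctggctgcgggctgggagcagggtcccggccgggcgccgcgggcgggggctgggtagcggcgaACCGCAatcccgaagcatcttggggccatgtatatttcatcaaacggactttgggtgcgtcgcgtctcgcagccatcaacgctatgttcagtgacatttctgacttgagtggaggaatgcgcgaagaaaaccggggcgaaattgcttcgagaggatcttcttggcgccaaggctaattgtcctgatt
Ntrk2, chr13:58806319-58806618, plus strand: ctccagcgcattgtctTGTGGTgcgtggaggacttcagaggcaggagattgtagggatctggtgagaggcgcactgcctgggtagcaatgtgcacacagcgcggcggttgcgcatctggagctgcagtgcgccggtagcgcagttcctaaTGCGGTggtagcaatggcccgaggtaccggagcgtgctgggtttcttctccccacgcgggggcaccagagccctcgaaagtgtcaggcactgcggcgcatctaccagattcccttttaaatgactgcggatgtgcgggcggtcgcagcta
The windows of Whrn and Vstm2b held no match, that of Ntng1 held 1 and that of Ntrk2 held 2. Of other genes called higher, Runx3 had 2 matches in one of its promoters and 0 in the other, and Plxnd1 and Pvalb had 0. Over both strands, 18.4% of 1201 promoters of genes called higher and 20.33% of 856 promoters of genes called lower held at least 1 match (a gene can have several promoters). The share was 20.97% for genes not called and 21.21% over the 21302 promoters of all genes of the table. A match is a description of these windows and not a binding site.

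Of the 13162 genes, 2008 (15.3%) were called by the authors' deposited edgeR test: 1158 (8.8%) were higher and 850 (6.46%) lower in TrkC:GFP than in the mutants. Over all 23038 genes the share was 10.1%, with 5.87% higher and 4.2% lower. Of the 13162 genes, 786 (5.97%) were called and higher by 2-fold or more and 622 (4.73%) called and lower by as much, with 337 and 288 by 4-fold or more, and 100 and 60 by 16-fold or more. The median log2 RPKM ratio of the 13162 genes was 0.0649, and the 5th and 95th percentiles were -1.29 and 1.41, and 84.4% of the genes lay within 2-fold. An RPKM of 1 or more was reached in both groups by 11797 genes, in TrkC:GFP alone by 735 and in the mutants alone by 630. The deposited RPKM holds 1 added read per library, so a short gene can reach this limit with few reads, and a very short one with none. The added read weighs more in the mutants: Gfap, without reads in either group, had a deposited RPKM of 0.025 in TrkC:GFP and 0.0312 in the mutants. Of the 12927 genes with recovered reads, 12373 had at least 10 reads over the 6 libraries. Just inside that limit, at 1 to 1.1 RPKM in the higher group, were 204 genes with 28 called, and just outside it, at 0.9 to 1 RPKM, were 224 with 31 called.

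**Figure D2:**
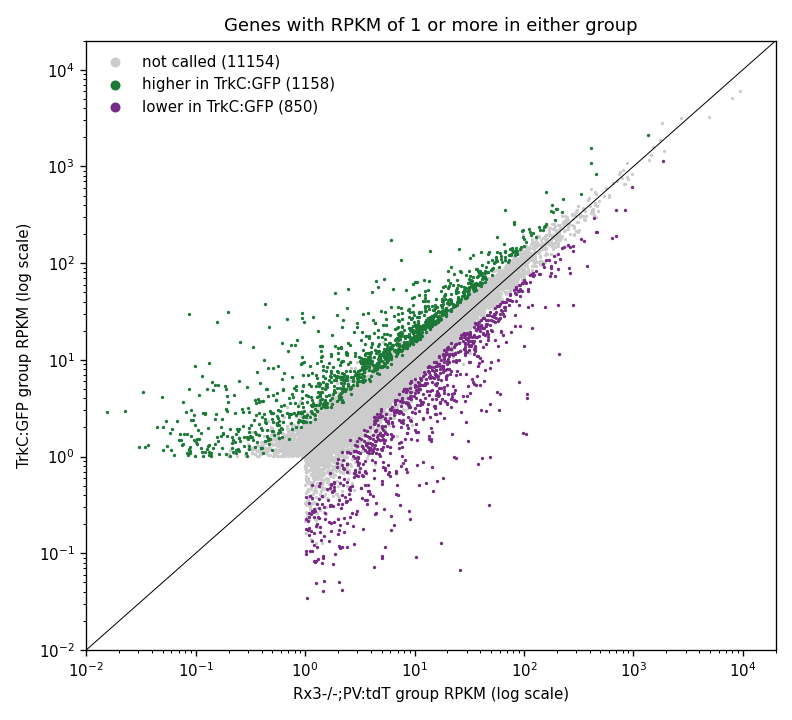
Group RPKM of the 13162 genes in TrkC:GFP (vertical, log scale) against the mutants (horizontal, log scale), from the authors' deposited table, with the line of equal values. The 1158 genes called higher lie above the line and the 850 called lower lie below it, and the empty lower left corner is the limit of 1 RPKM.

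The recovered libraries show how far a call rests on every library. Among called genes with recovered reads, all 3 TrkC:GFP libraries lay above all 3 mutant libraries for 1116 of 1121 genes called higher (99.6%). They lay below all 3 for 784 of 831 genes called lower (94.3%). Among all recovered genes, called or not, 33.4% had libraries that did not overlap, 20.9% with TrkC:GFP above and 12.5% with TrkC:GFP below. The calls use the same reads, so these shares describe the calls and do not test them. limma with voom on the recovered reads, chosen after seeing the data, called 1056 of 1121 and 737 of 831 of these genes in the same direction. It called 601 and 429 of them in every fit that left out a library. A few calls rest on a single library: over 80% of the summed mutant RPKM came from the deepest mutant library for 3 genes called lower and from the middle one for 1. For 2 genes called higher, over 80% came from the middle TrkC:GFP library. A further 19 genes called lower had reads in the deepest and middle mutant libraries and none in the shallowest, which had the fewest reads.

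Among genes of 10 RPKM or more in TrkC:GFP, the largest fold change was that of Vstm2b, which encodes a membrane protein with an immunoglobulin domain. It had 448, 549 and 313 reads in the TrkC:GFP libraries and none in the mutant libraries, which is at least 422-fold higher in TrkC:GFP. Kcnip2, a cytosolic subunit of A-type potassium channels, was at 28.3, 31.9 and 32.6 RPKM in TrkC:GFP, against 0.101, 0 and 0 RPKM in the mutants. Lrrc7, the gene of the postsynaptic scaffold densin, was at 24.6, 28 and 27.4 RPKM in TrkC:GFP, against 0.0674, 0.668 and 1.27 RPKM in the mutants. The TrkC:GFP libraries were even for these genes, and Lrrc7 was low but present in the mutants. Fam70a, an older symbol of the transmembrane protein gene Tmem255a, was at 179, 176 and 165 RPKM in TrkC:GFP, against 3.84, 9.84 and 4.55 RPKM in the mutants. Gprc5b, an orphan G-protein-coupled receptor gene, was at 19.7, 27.4 and 18.2 RPKM in TrkC:GFP, against 0.533, 0.145 and 0.637 RPKM in the mutants. Both changed with no overlap, Fam70a at a far higher level in either group. Wild-type PV stood with TrkC:GFP, at 23.2, 34.4 and 33.9 RPKM for Vstm2b, 29.7, 32.3 and 36.6 RPKM for Kcnip2 and 191, 218 and 201 RPKM for Fam70a. For TrkC:GFP over mutants, the authors' deposited table held log2 fold changes of 9.87 (edgeR adjusted p = 2.2e-58) for Vstm2b, 7.73 (edgeR adjusted p = 1.2e-38) for Kcnip2, 5.35 (edgeR adjusted p = 3.5e-18) for Lrrc7, 4.81 (edgeR adjusted p = 2.7e-45) for Fam70a and 5.65 (edgeR adjusted p = 5.6e-48) for Gprc5b. Lrrc7 had a limma log2 fold change of 6.45 with all libraries, 5.02 without the deepest mutant library and 7.19 without the middle mutant library. Gprc5b had a limma log2 fold change of 5.97 with all libraries, 5.23 without the middle mutant library. The calls of both genes held in each of these fits.

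Among genes of 10 RPKM or more in the mutants, F2r, the gene of the thrombin receptor PAR1, was at 1.89, 1.76 and 1.4 RPKM in TrkC:GFP, against 97.6, 45.4 and 168 RPKM in the mutants. Gpr39, a zinc-sensing receptor gene, was at 0.0913, 0.0706 and 0 RPKM in TrkC:GFP, against 6.11, 17.4 and 7.01 RPKM in the mutants. Lypd1, which encodes a GPI-anchored modulator of nicotinic receptors, was at 0.194, 0.045 and 0 RPKM in TrkC:GFP, against 11.7, 28.6 and 11.6 RPKM in the mutants. These genes were at or under 2 RPKM in each TrkC:GFP library, and the mutant libraries varied among themselves, with the shallowest highest for F2r and the middle one highest for Gpr39 and Lypd1. H60b, which encodes a ligand of the NKG2D receptor of lymphocytes, was at 0.43, 0.20 and 0 RPKM in TrkC:GFP, against 64.7, 31.7 and 47.6 RPKM in the mutants. Car3, a carbonic anhydrase gene, was at 0.373, 1.84 and 0.537 RPKM in TrkC:GFP, against 51.9, 45.3 and 26.6 RPKM in the mutants. Layn, the gene of the hyaluronan receptor layilin, was at 5.36, 4.09 and 3.6 RPKM in TrkC:GFP, against 90.7, 113 and 119 RPKM in the mutants. For all 6 genes every mutant library was above every TrkC:GFP library. As log2 fold changes of TrkC:GFP over mutants, the authors' deposited table lists -5.91 (edgeR adjusted p = 2.3e-39) for F2r, -6.87 (edgeR adjusted p = 4.1e-25) for Gpr39, -7.11 (edgeR adjusted p = 1.2e-30) for Lypd1, -7.09 (edgeR adjusted p = 1.7e-45) for H60b, -5.42 (edgeR adjusted p = 5.5e-29) for Car3 and -4.59 (edgeR adjusted p = 1.3e-67) for Layn. Gpr39 had a limma log2 fold change of -7.2 with all libraries, -6.61 without the shallowest TrkC:GFP library. Lypd1 had a limma log2 fold change of -7.67 with all libraries, -8.5 without the deepest TrkC:GFP library and -7.07 without the shallowest TrkC:GFP library. H60b had a limma log2 fold change of -7.74 with all libraries, -8.4 without the deepest TrkC:GFP library and -7.05 without the shallowest TrkC:GFP library. Car3 had a limma log2 fold change of -5.83 with all libraries, -5.24 without the deepest TrkC:GFP library and -6.53 without the middle TrkC:GFP library. All 4 calls held in these fits.

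Wild-type PV lay between the other groups for several genes that were high in the mutants. Layn was there at 25.4, 13.5 and 26.9 RPKM, F2r at 25.3, 6.27 and 18.4 RPKM and H60b at 3.83, 1.13 and 3.82 RPKM. Wild-type PV was higher than TrkC:GFP by the authors' deposited table, with log2 fold changes of 2.31 (edgeR adjusted p = 2.6e-13) for Layn, 3.28 (edgeR adjusted p = 2.9e-13) for F2r and 3.12 (edgeR adjusted p = 0.00016) for H60b. Raet1c, a related NKG2D ligand gene, had no read in TrkC:GFP and was at 3.75, 10.4 and 4.7 RPKM in the mutants. Raet1e, another, had no read in TrkC:GFP and was at 4.03, 5.67 and 8.03 RPKM in the mutants. H60b, Raet1c and Raet1e have close paralogs, and reads shared among them could not be separated.

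Tuba1c, an alpha-tubulin gene, set TrkC:GFP apart from both PV:tdT groups. It was at 4.39, 4.03 and 3.64 RPKM in the TrkC:GFP libraries, 88.8, 64.5 and 76.6 RPKM in the wild-type PV libraries and 136, 83.3 and 101 RPKM in the mutant libraries. In the authors' deposited table the log2 fold change was -4.71 (edgeR adjusted p = 3.6e-64) in TrkC:GFP over mutants and 4.23 (edgeR adjusted p = 2e-95) in wild-type PV over TrkC:GFP, and -0.48 (edgeR adjusted p = 0.106) in wild-type PV over mutants. Alpha-tubulin genes are near-identical, and how the authors counted reads that fit several of them is not given, so this value is uncertain. Of the 12 expressed tubulins 1 was called higher, 5 lower and 6 not called (median log2 fold change -0.28). Tubb6, a beta-tubulin gene, was at 7.56, 6.95 and 6.83 RPKM in TrkC:GFP, against 41.9, 26.8 and 19.7 RPKM in the mutants. Tuba8, the member called higher, was at 17.4, 53.7 and 20.9 RPKM in TrkC:GFP, against 9.35, 4.7 and 8.52 RPKM in the mutants. The middle TrkC:GFP library was the highest for Tuba8, and limma no longer called it without the middle mutant library (adjusted p = 0.0737).

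**Figure D3:**
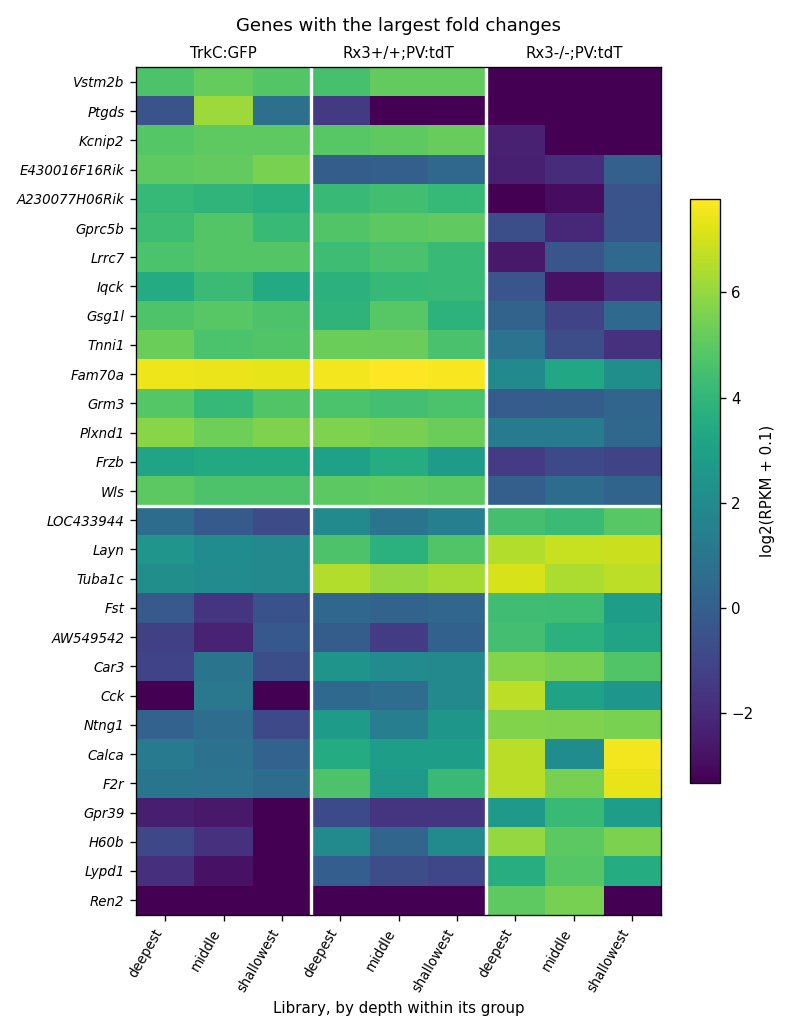
log2(RPKM + 0.1) of 29 genes with the largest fold changes (15 higher and 14 lower, higher group at 10 RPKM or more) in the 3 libraries of TrkC:GFP, wild-type PV (Rx3+/+;PV:tdT) and mutants (Rx3-/-;PV:tdT), each from deepest to shallowest. Most rows are even within a group, and Ptgds, Cck, Calca and Ren2 are uneven, while E430016F16Rik and Tuba1c separate TrkC:GFP from wild-type PV.

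Several large fold changes rested on 1 or 2 libraries. Ptgds, a prostaglandin synthase gene also strong in meningeal cells, was at 0.61, 71.4 and 1.6 RPKM in TrkC:GFP, against 0, 0 and 0 RPKM in the mutants, so the middle TrkC:GFP library held nearly all of its signal. Ren2, a renin gene that is present in some strains such as 129 and absent from C57BL/6, was at 0, 0 and 0 RPKM in TrkC:GFP, against 32.5, 45.5 and 0 RPKM in the mutants. The deepest and middle mutant libraries thus held all reads of Ren2. Calca, which encodes the peptide CGRP, was at 2.25, 1.72 and 1.04 RPKM in TrkC:GFP, against 99.1, 4.14 and 188 RPKM in the mutants. Cck, the cholecystokinin gene, was at 0, 2.08 and 0 RPKM in TrkC:GFP, against 100.1, 8.38 and 5.49 RPKM in the mutants. The deepest mutant library was the high one for Cck, and the middle mutant library was close to TrkC:GFP for Calca. Each of these was called by the authors' deposited table, with log2 fold changes of 7.78 (edgeR adjusted p = 4.4e-05), -11.65 (edgeR adjusted p = 1.3e-09), -5.79 (edgeR adjusted p = 7.3e-09) and -5.54 (edgeR adjusted p = 5.5e-05) in that order. None of the 4 was called by limma with all libraries, where the adjusted p was 0.217, 0.22, 0.222 and 0.114 in the same order. Ptgds had a limma log2 fold change of 5.92 with all libraries, 7.62 without the deepest TrkC:GFP library and 3.82 without the middle TrkC:GFP library. Ren2 had a limma log2 fold change of -8.61 with all libraries, -7.61 without the deepest mutant library, -7.28 without the middle mutant library and -10.2 without the shallowest mutant library. Calca had a limma log2 fold change of -4.36 with all libraries, -3.39 without the deepest mutant library, -6.25 without the middle mutant library and -3.6 without the shallowest mutant library. Cck had a limma log2 fold change of -6.57 with all libraries, -5.43 without the deepest TrkC:GFP library, -8.21 without the middle TrkC:GFP library, -5.02 without the deepest mutant library and -7.39 without the middle mutant library. Of these fits, that of Calca without the middle mutant library, that of Cck without the deepest mutant library and that of Ren2 without the shallowest mutant library called the gene.

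Of the 13162 genes, called or not, 454 had no recovered read in the mutants and 449 had none in TrkC:GFP. Genes with no read in the other group numbered 31 among those called higher and 23 among those called lower. After Vstm2b, the most reads in TrkC:GFP were those of Ptgds, Trpm8 and Myom3. Trpm8, the cold-sensing channel gene, had 199, 146 and 190 reads in the TrkC:GFP libraries (at least 172-fold higher), and Myom3, a sarcomere gene, had 237, 133 and 135 reads (at least 163-fold higher). Both were also present in wild-type PV, at 3.83, 3.74 and 2.4 RPKM for Trpm8 and 1.76, 3.49 and 1.39 RPKM for Myom3. Chad, the gene of the matrix protein chondroadherin, had 66, 78 and 38 reads, at least 58.7-fold more than the mutants.

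The 13162 genes were then read by lists of related genes, and each count stands beside 8.8% higher, 6.46% lower and a median log2 fold change of 0.07 over all 13162. The lists were written with earlier results of these data known, and their counts and medians are descriptions with no test of the list. A list's median is that of the deposited log2 fold changes of its expressed members. Expressed means a deposited RPKM of 1 or more in either group, the added read included.

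**Figure D4:**
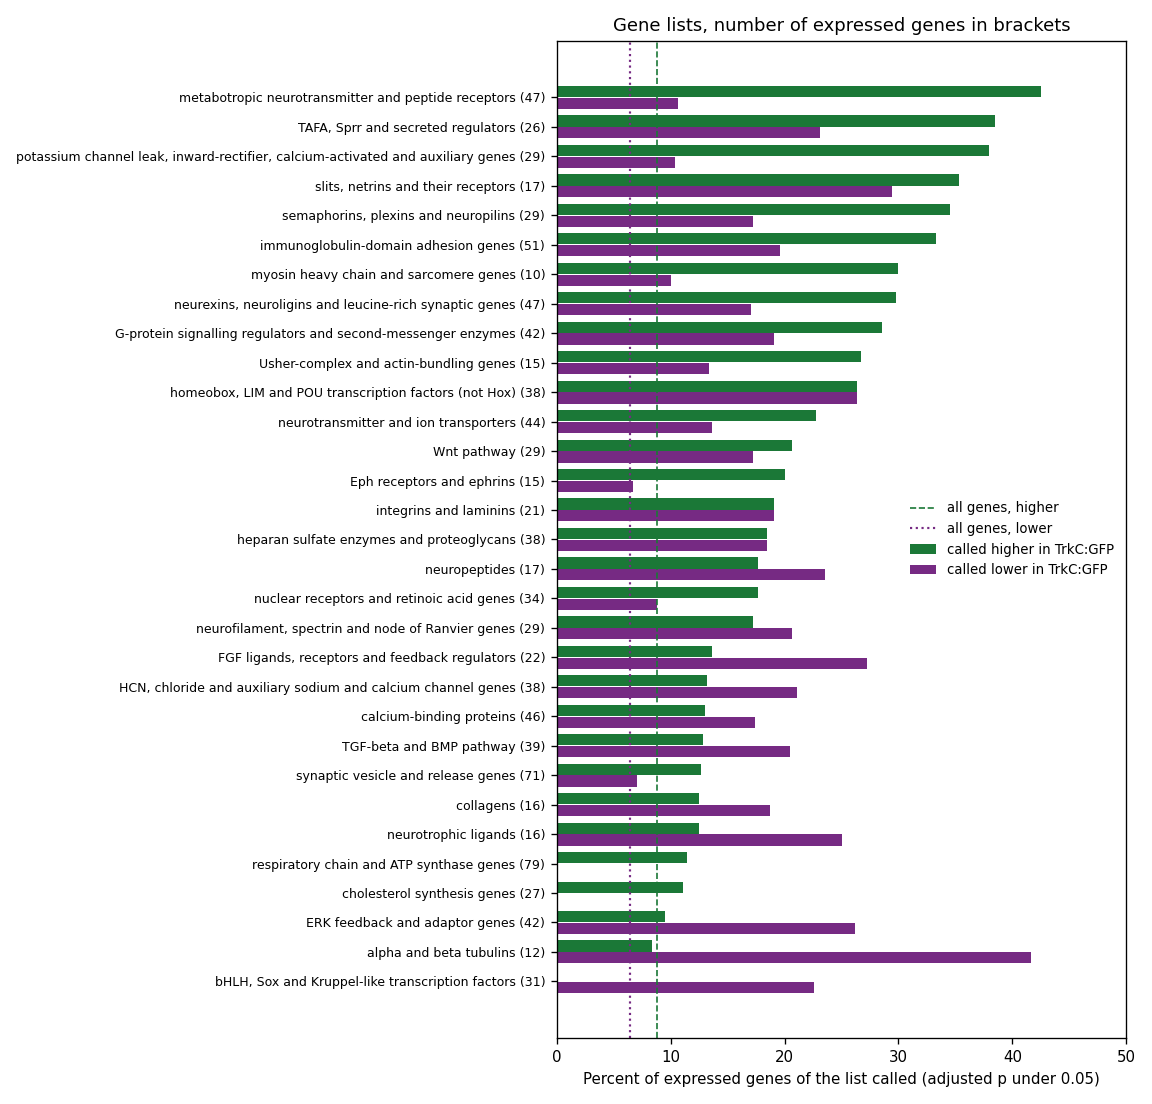
Percent of the expressed genes of each list called higher (green) or lower (purple) in TrkC:GFP over mutants at an adjusted p under 0.05, with the number of expressed genes in brackets and lines at 8.8% and 6.46% for all 13162 genes. Of the 31 lists drawn, metabotropic receptors have the highest share called higher, 42.6%, and tubulins the highest share called lower, 41.7%.

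Axon guidance genes were called in both directions. Semaphorins are guidance cues that signal through plexins and neuropilins, and of 29 expressed genes of this system 10 were called higher, 5 lower and 14 not called (median log2 fold change 0.16). Plxnd1, a plexin receptor, was at 55.9, 40.2 and 49.4 RPKM in TrkC:GFP, against 2.17, 2.18 and 1.22 RPKM in the mutants. Sema3a, a secreted cue that repels sensory axons, was at 3.34, 1.97 and 3.4 RPKM in TrkC:GFP, against 0.292, 0.281 and 0.19 RPKM in the mutants. Plxna2, another plexin, was at 91.5 RPKM in TrkC:GFP and 21.4 RPKM in the mutants in the authors' deposited table. These 3 were the higher ones, and Sema3a was under 1 RPKM in every mutant library. Plxna4, a plexin of sensory axons, was at 17.1, 10.9 and 13.3 RPKM in TrkC:GFP, against 86.9, 114 and 98.9 RPKM in the mutants. Nrp1, the neuropilin that binds Sema3a, was at 11.1, 6.33 and 10.5 RPKM in TrkC:GFP, against 34.7, 46.4 and 35.9 RPKM in the mutants. Sema5b was at 0.541, 1.04 and 0.389 RPKM in TrkC:GFP, against 10.9, 4.97 and 4.48 RPKM in the mutants. All 3 were lower in TrkC:GFP with no overlap, so Sema3a and its receptor Nrp1 lay on opposite sides. Deposited log2 fold changes, from the authors' deposited table, were 4.66 (edgeR adjusted p = 3.4e-63) for Plxnd1, 3.4 (edgeR adjusted p = 2.2e-17) for Sema3a, 2.1 (edgeR adjusted p = 5.3e-10) for Plxna2, -2.86 (edgeR adjusted p = 3.1e-34) for Plxna4, -2.07 (edgeR adjusted p = 3.3e-15) for Nrp1 and -3.33 (edgeR adjusted p = 6e-12) for Sema5b. Nrp1 was lower still in wild-type PV, where the authors' deposited table gave -1.02 (edgeR adjusted p = 0.02) for wild-type PV over TrkC:GFP. Sema5a was not called, at 18.1, 14.6 and 18.9 RPKM in TrkC:GFP, against 17.1, 14.5 and 19.6 RPKM in the mutants.

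Of 17 expressed slits, netrins and their receptors 6 were called higher, 5 lower and 6 not called (median log2 fold change -0.19). Slit2, a secreted cue that repels many axons and branches sensory ones, was at 45.9, 50.1 and 54.4 RPKM in TrkC:GFP, against 3.09, 4.16 and 4.97 RPKM in the mutants. Its receptor genes were not called: Robo1 was at 21.9 RPKM in TrkC:GFP and 16 RPKM in mutants, and Robo2 at 17.5 and 24 RPKM, in the authors' deposited table. Dcc, a netrin receptor, was at 8.47, 8.46 and 10.3 RPKM in TrkC:GFP, against 0.764, 1.26 and 0.715 RPKM in the mutants. Slit2 and Dcc were thus higher in each TrkC:GFP library. The repulsive netrin receptor gene Unc5c lay on the other side, but its relative Unc5a was called higher. Deposited group values of Unc5a were 4.97 RPKM in TrkC:GFP and 0.447 RPKM in mutants (log2 fold change 3.34, edgeR adjusted p = 2.7e-07). Unc5c was at 7.94, 6.64 and 6.96 RPKM in TrkC:GFP, against 15, 17.4 and 13.3 RPKM in the mutants. Ntng1, a GPI-anchored netrin-G gene, was at 1.02, 1.48 and 0.453 RPKM in TrkC:GFP, against 50.3, 49.8 and 46.4 RPKM in the mutants. Its relative Ntng2 was at 17.8, 19.99 and 21.2 RPKM in TrkC:GFP, against 48, 48.4 and 41.3 RPKM in the mutants. Both netrin-G genes were lower in every TrkC:GFP library, Ntng1 by far more. Lrrc4, which encodes the membrane ligand of netrin-G2, was at 8.2, 10.5 and 8.13 RPKM in TrkC:GFP, against 2.08, 2.09 and 3.18 RPKM in the mutants and so was higher. On the log2 scale, the fold changes in the authors' deposited table were 3.62 (edgeR adjusted p = 3e-52) for Slit2, 3.28 (edgeR adjusted p = 7.7e-33) for Dcc, -1.08 (edgeR adjusted p = 2.7e-06) for Unc5c, -5.59 (edgeR adjusted p = 8.4e-62) for Ntng1, -1.23 (edgeR adjusted p = 5.9e-07) for Ntng2 and 1.88 (edgeR adjusted p = 3.6e-08) for Lrrc4. Wild-type PV stood between the groups for Ntng1, at 6.96, 2.6 and 5.79 RPKM, with a log2 fold change over TrkC:GFP of 2.34 (edgeR adjusted p = 9e-07) in the authors' deposited table.

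Eph receptors and ephrins, contact cues between cells, numbered 15 expressed, of which 3 were called higher, 1 lower and 11 not called (median log2 fold change 0.09). Epha4, a receptor, was at 6.25, 8.14 and 5.73 RPKM in TrkC:GFP, against 1.94, 1.17 and 4.13 RPKM in the mutants, and the shallowest mutant library came closest to TrkC:GFP. Efna5, a ligand gene, was at 18.3, 17.1 and 18 RPKM in TrkC:GFP, against 47, 36.9 and 31.8 RPKM in the mutants, with every TrkC:GFP library lower. The authors' deposited table gave 1.49 (edgeR adjusted p = 0.00152) for Epha4 and -1.12 (edgeR adjusted p = 2.9e-06) for Efna5 as log2 fold changes.

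Wnt signalling genes, which act in development and synapse formation, numbered 29 expressed, of which 6 were called higher, 5 lower and 18 not called (median log2 fold change -0.24). Wnt7a, a ligand, was at 8.34, 9.68 and 9.71 RPKM in TrkC:GFP, against 0, 0 and 0.279 RPKM in the mutants. Wls, the gene of the carrier that brings Wnt proteins out of the cell, was at 31.7, 25 and 25.7 RPKM in TrkC:GFP, against 0.926, 1.43 and 1.11 RPKM in the mutants. Frzb, a secreted Wnt antagonist, was at 8.74, 10.7 and 10.5 RPKM in TrkC:GFP, against 0.293, 0.45 and 0.38 RPKM in the mutants. All 3 were under 2 RPKM in every mutant library. Axin2, a feedback inhibitor and common Wnt target, was at 0.534, 0.332 and 0.479 RPKM in TrkC:GFP, against 3.75, 2.47 and 3.41 RPKM in the mutants. Dkk3, a secreted protein gene of the Dickkopf family, was at 5.1, 4.9 and 4.56 RPKM in TrkC:GFP, against 26.6, 15.1 and 28.4 RPKM in the mutants. Wnt5a, another ligand, was at 0.673, 1.19 and 1.09 RPKM in TrkC:GFP, against 5.43, 4.43 and 4.66 RPKM in the mutants. These were lower in every TrkC:GFP library, so ligand genes were found on both sides. The fold changes on the log2 scale were 6.78 (edgeR adjusted p = 9.6e-34) for Wnt7a, 4.53 (edgeR adjusted p = 3.6e-59) for Wls, 4.6 (edgeR adjusted p = 4.9e-30) for Frzb, -2.77 (edgeR adjusted p = 3.3e-09) for Axin2, -2.25 (edgeR adjusted p = 2.2e-14) for Dkk3 and -2.28 (edgeR adjusted p = 4.6e-09) for Wnt5a in the authors' deposited table. Wnt7a had a limma log2 fold change of 8.22 with all libraries, 9.51 without the shallowest mutant library.

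In the deposited calls, the lists of growth factor ligands and pathway genes each held more genes called lower than higher. Of 22 expressed FGF ligands, receptors and feedback regulators 3 were called higher, 6 lower and 13 not called (median log2 fold change -0.37). The 3 called higher were the FGF family genes Fgf9, Fgf11 and Fgf14, and Fgf18 was among the 6 called lower. Of 39 expressed genes of the TGF-beta and BMP pathway 5 were called higher, 8 lower and 26 not called (median log2 fold change -0.12). Of 16 expressed neurotrophic ligands 2 were called higher, 4 lower and 10 not called (median log2 fold change -0.18), while limma called 3 higher and 3 lower. Fgf9, a ligand, was among the higher ones, at 14, 23.5 and 10.5 RPKM in TrkC:GFP, against 1.01, 0.655 and 0.757 RPKM in the mutants. Ntf3, the gene of neurotrophin-3, was at 0.687, 0.552 and 0.166 RPKM in TrkC:GFP, against 14.7, 14.2 and 9.17 RPKM in the mutants. Igf1, insulin-like growth factor 1, was at 6.43, 3.44 and 4.14 RPKM in TrkC:GFP, against 52.4, 46 and 69.9 RPKM in the mutants. Both ligands were lower in every TrkC:GFP library, and so was Bdnf by a smaller margin. Bdnf, the gene of a TrkB ligand, was at 5.39, 4.7 and 5.06 RPKM in TrkC:GFP, against 8.97, 10.4 and 7.73 RPKM in the mutants. Mstn, the gene of myostatin, was at 0.122, 0.212 and 0.288 RPKM in TrkC:GFP, against 6.47, 5.91 and 5.62 RPKM in the mutants. Fst, the gene of follistatin, which binds and blocks myostatin and activin, was at 0.752, 0.218 and 0.591 RPKM in TrkC:GFP, against 20.3, 19.97 and 7.3 RPKM in the mutants. Myostatin and its antagonist were thus both near 0 in TrkC:GFP and clearly present in each mutant library. In the authors' deposited table the log2 fold changes were 4.25 (edgeR adjusted p = 4.6e-29) for Fgf9, -4.51 (edgeR adjusted p = 2.8e-20) for Ntf3, -3.58 (edgeR adjusted p = 4.8e-36) for Igf1, -0.84 (edgeR adjusted p = 0.00315) for Bdnf, -4.65 (edgeR adjusted p = 1.7e-20) for Mstn and -4.82 (edgeR adjusted p = 6.5e-21) for Fst. Wild-type PV was above TrkC:GFP in the authors' deposited table, with log2 fold changes of 2.39 (edgeR adjusted p = 7.3e-05) for Mstn and 1.17 (edgeR adjusted p = 0.00018) for Igf1.

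The ERK pathway carries the signal of receptor tyrosine kinases such as Ret and the Trk receptors, and of its 42 expressed feedback and adaptor genes 4 were called higher, 11 lower and 27 not called (median log2 fold change -0.05). Spry4, a Sprouty inhibitor, was at 4.65, 4.69 and 3.28 RPKM in TrkC:GFP, against 26.4, 28.9 and 27 RPKM in the mutants. Spred2, a related inhibitor, was at 16.1, 16.7 and 13.8 RPKM in TrkC:GFP, against 42.9, 34.6 and 42.4 RPKM in the mutants. Etv5, an ETS factor induced by Ret and FGF signals, was at 6.57, 6.63 and 5.72 RPKM in TrkC:GFP, against 37.3, 18.3 and 45.1 RPKM in the mutants. These feedback genes were lower in all 3 TrkC:GFP libraries. Shc4, an adaptor of the Shc family, was at 3.75, 4.16 and 3.26 RPKM in TrkC:GFP, against 23.6, 24.1 and 24.4 RPKM in the mutants. Gab1, a docking protein of receptor tyrosine kinases, was at 4.26, 1.91 and 3.68 RPKM in TrkC:GFP, against 15.2, 14.2 and 15.9 RPKM in the mutants. Both were lower too, without overlap. Grb10, an adaptor that inhibits the insulin receptor, was at 12.3, 9.84 and 12.7 RPKM in TrkC:GFP, against 4.73, 2.86 and 3.17 RPKM in the mutants. Its relative Grb14 was at 21, 22.4 and 22.6 RPKM in TrkC:GFP, against 5.04, 8.14 and 9.81 RPKM in the mutants, so both of these lay on the higher side. Log2 fold changes in the authors' deposited table were -2.69 (edgeR adjusted p = 1.9e-29) for Spry4, -1.36 (edgeR adjusted p = 1.7e-09) for Spred2, -2.4 (edgeR adjusted p = 1.9e-13) for Etv5, -2.68 (edgeR adjusted p = 3.8e-36) for Shc4, -2.19 (edgeR adjusted p = 1.7e-12) for Gab1, 1.68 (edgeR adjusted p = 3.5e-09) for Grb10 and 1.53 (edgeR adjusted p = 1.1e-07) for Grb14.

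Heparan sulfate is a sugar chain of the cell surface that binds Wnt, FGF and Slit proteins, and of 38 expressed enzyme and proteoglycan genes 7 were called higher, 7 lower and 24 not called (median log2 fold change -0.13). Sulf2, an enzyme that removes sulfate groups outside the cell, was at 138, 146 and 116 RPKM in TrkC:GFP, against 11.7, 10.5 and 19 RPKM in the mutants. Ndst4, which adds sulfate to the chain, was at 58.3, 64.5 and 48.5 RPKM in TrkC:GFP, against 5.11, 4.57 and 4.18 RPKM in the mutants. Hs3st2, another sulfotransferase, was at 49.3, 61.4 and 51.7 RPKM in TrkC:GFP, against 1.89, 1.81 and 3.57 RPKM in the mutants. These enzymes were higher in every TrkC:GFP library, as was Ndst3. Ndst3 was at 19.3, 20.8 and 24.8 RPKM in TrkC:GFP, against 5.47, 9.5 and 5.93 RPKM in the mutants. The sulfotransferase gene Hs6st1 was at 13.3, 14 and 10.5 RPKM in TrkC:GFP, against 37.9, 26.6 and 28.9 RPKM in the mutants. Gpc5, a glypican core protein, was at 2.42, 2.38 and 1.46 RPKM in TrkC:GFP, against 4.58, 10.3 and 10.8 RPKM in the mutants. Both of these were lower in every TrkC:GFP library. Sulf1, the relative of Sulf2, was at 0.432, 0.267 and 0.226 RPKM in TrkC:GFP, against 1.36, 1.1 and 1.37 RPKM in the mutants, and limma no longer called it without the middle or the shallowest TrkC:GFP library (adjusted p up to 0.0589). For TrkC:GFP over mutants, the authors' deposited table held log2 fold changes of 3.29 (edgeR adjusted p = 5.2e-35) for Sulf2, 3.62 (edgeR adjusted p = 6.6e-59) for Ndst4, 4.52 (edgeR adjusted p = 2.5e-50) for Hs3st2, 1.62 (edgeR adjusted p = 3.5e-09) for Ndst3, -1.3 (edgeR adjusted p = 3.2e-07) for Hs6st1, -2.01 (edgeR adjusted p = 2.4e-06) for Gpc5 and -1.96 (edgeR adjusted p = 0.00047) for Sulf1.

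Integrins are receptors for the extracellular matrix, and of 21 expressed integrin and laminin genes 4 were called higher, 4 lower and 13 not called (median log2 fold change -0.42). Itga6, the laminin-binding alpha-6 subunit, was at 21.3, 29.3 and 26.7 RPKM in TrkC:GFP, against 3.88, 5.03 and 3.45 RPKM in the mutants. Itga3, another laminin-binding subunit, was at 4.8, 4.22 and 3.48 RPKM in TrkC:GFP, against 27, 28.2 and 35.4 RPKM in the mutants. The 2 laminin-binding subunits changed in opposite directions with no overlap. Itga2, a collagen-binding subunit, was at 14.7, 9.63 and 6.46 RPKM in TrkC:GFP, 32.9, 31 and 32.3 RPKM in wild-type PV and 1.48, 3.27 and 1.21 RPKM in the mutants, and so was highest in wild-type PV. Log2 fold changes over the mutants in the authors' deposited table were 2.63 (edgeR adjusted p = 1.8e-26) for Itga6, -2.85 (edgeR adjusted p = 4.1e-32) for Itga3 and 2.33 (edgeR adjusted p = 2.2e-07) for Itga2, and that of Itga2 in wild-type PV over TrkC:GFP was 1.63 (edgeR adjusted p = 4.4e-09). Of 16 expressed collagens 2 were called higher, 3 lower and 11 not called (median log2 fold change -0.49). Col11a1, a fibrillar collagen, was at 2.18, 0.868 and 1.42 RPKM in TrkC:GFP, against 9.999, 25.1 and 7.11 RPKM in the mutants. Col19a1, a minor collagen, was at 2.16, 1.87 and 3.2 RPKM in TrkC:GFP, 0.438, 0.27 and 0.504 RPKM in wild-type PV and 0.822, 1.56 and 1.29 RPKM in the mutants. Wild-type PV was thus lowest for Col19a1, with a log2 fold change of -2.55 (edgeR adjusted p = 5.5e-15) over TrkC:GFP in the authors' deposited table. That table gave -3.23 (edgeR adjusted p = 3.9e-11) for Col11a1 and 0.97 (edgeR adjusted p = 0.0364) for Col19a1 over the mutants. The call of Col19a1 was weak, with an adjusted p in limma of 0.048 with all libraries and up to 0.193 when the deepest or shallowest library of either group was left out.

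Adhesion genes were called in both directions: of 51 expressed immunoglobulin-domain genes 17 were called higher, 10 lower and 24 not called (median log2 fold change -0.16). Cntnap4, a contactin-associated protein gene, was at 17.3, 14.3 and 20.9 RPKM in TrkC:GFP, against 3.25, 4.03 and 3.43 RPKM in the mutants. Lsamp, which encodes a GPI-anchored protein known from the limbic system, was at 56, 59.7 and 57.3 RPKM in TrkC:GFP, against 21.1, 17.3 and 23.6 RPKM in the mutants. Negr1, a close relative of Lsamp, was at 16.4, 9.86 and 15.6 RPKM in TrkC:GFP, against 59.4, 63.6 and 50.4 RPKM in the mutants. Lsamp and Negr1 thus changed in opposite directions, each without overlap. Cntn6, a contactin, was at 2.9, 2.15 and 2.33 RPKM in TrkC:GFP, against 9.92, 16.6 and 9.04 RPKM in the mutants. Nrcam, an L1-family adhesion gene of the node of Ranvier, was at 9.57, 11.1 and 8.15 RPKM in TrkC:GFP, against 24.4, 31.3 and 40.5 RPKM in the mutants. Both were lower in TrkC:GFP. Thy1, a surface protein of most neurons, was not called, at 207, 324 and 228 RPKM in TrkC:GFP, against 319, 156 and 302 RPKM in the mutants, and its groups overlapped. Of 47 expressed neurexins, neuroligins and leucine-rich synaptic genes 14 were called higher, 8 lower and 25 not called (median log2 fold change 0.27). Nrxn3, a presynaptic neurexin, was at 16.5, 15.1 and 18.3 RPKM in TrkC:GFP, against 6.52, 6.99 and 7.35 RPKM in the mutants. Odz3 (an older symbol of the teneurin gene Tenm3) was at 18.7, 15.8 and 17 RPKM in TrkC:GFP, against 5.13, 3.5 and 6.49 RPKM in the mutants. Both were higher in every TrkC:GFP library. Ptprd, a receptor phosphatase that binds synaptic adhesion proteins, was at 8.29, 7.95 and 6.77 RPKM in TrkC:GFP, against 20.8, 20.1 and 24.4 RPKM in the mutants, and was lower. Deposited log2 fold changes, from the authors' deposited table, were 2.28 (edgeR adjusted p = 3.7e-19) for Cntnap4, 1.48 (edgeR adjusted p = 7.4e-12) for Lsamp, -2.05 (edgeR adjusted p = 1.6e-16) for Negr1, -2.26 (edgeR adjusted p = 4.7e-11) for Cntn6, -1.74 (edgeR adjusted p = 4.3e-12) for Nrcam, 1.26 (edgeR adjusted p = 5.5e-09) for Nrxn3, 1.77 (edgeR adjusted p = 1.5e-11) for Odz3 and -1.5 (edgeR adjusted p = 4.4e-12) for Ptprd.

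Metabotropic receptors for transmitters and peptides act through G proteins, and of 47 expressed 20 were called higher, 5 lower and 22 not called (median log2 fold change 1.12). Grm3, a glutamate receptor gene, was at 28.8, 17.2 and 27.2 RPKM in TrkC:GFP, against 0.836, 0.86 and 1.13 RPKM in the mutants. Htr2c, a serotonin receptor gene, was at 4.76, 6.54 and 4.6 RPKM in TrkC:GFP, against 0.219, 0.219 and 0.0655 RPKM in the mutants. Tacr3, the gene of the neurokinin B receptor, was at 5.11, 4.69 and 6.52 RPKM in TrkC:GFP, against 0.227, 0 and 0.118 RPKM in the mutants. All 3 were under 2 RPKM in every mutant library. Adra1d, an adrenergic receptor gene, had 52, 69 and 44 reads in the TrkC:GFP libraries and none in the mutants, at least 53.2-fold higher. Galr1, a galanin receptor gene, had 91, 58 and 33 reads in the TrkC:GFP libraries and none in the mutants, at least 58.7-fold higher. The receptors called lower included F2r, described above, and its relative F2rl2. F2rl2 was at 1.26, 1.08 and 0.522 RPKM in TrkC:GFP, against 24, 18.3 and 26.9 RPKM in the mutants. Chrm2, a muscarinic acetylcholine receptor gene, was at 10.7, 7.83 and 11.4 RPKM in TrkC:GFP, against 42.6, 64.1 and 67.1 RPKM in the mutants. Oprk1, the gene of the kappa opioid receptor, was at 0.0376, 0.0436 and 0 RPKM in TrkC:GFP, against 2.63, 1.66 and 1.73 RPKM in the mutants. In each case the TrkC:GFP libraries lay below all mutant libraries. The GABA-B receptor subunits were not called: Gabbr1 was at 88.6 RPKM in TrkC:GFP and 93.1 RPKM in mutants, and Gabbr2 at 69 and 100.3 RPKM, in the authors' deposited table. On the log2 scale, the fold changes in the authors' deposited table were 4.68 (edgeR adjusted p = 3.1e-46) for Grm3, 4.7 (edgeR adjusted p = 9e-33) for Htr2c, 5.21 (edgeR adjusted p = 6.9e-22) for Tacr3, -4.49 (edgeR adjusted p = 1.7e-37) for F2rl2, -2.53 (edgeR adjusted p = 1.8e-20) for Chrm2 and -5.22 (edgeR adjusted p = 1.6e-14) for Oprk1. Tacr3 had a limma log2 fold change of 6.33 with all libraries, 7.4 without the deepest mutant library and 4.72 without the middle mutant library.

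Downstream of such receptors, of 42 expressed G-protein regulators and second-messenger enzymes 12 were called higher, 8 lower and 22 not called (median log2 fold change 0.06). Rgs9, which speeds the shut-off of G proteins, was at 3.25, 1.58 and 2.67 RPKM in TrkC:GFP, against 19.9, 24.3 and 11.7 RPKM in the mutants. Adcy8, a calcium-stimulated adenylyl cyclase gene, was at 5.41, 8.97 and 5.18 RPKM in TrkC:GFP, against 0.741, 0.994 and 2.07 RPKM in the mutants. Rgs9 was lower and Adcy8 higher without overlap, whereas Adcy1, the related cyclase gene, was not called. Adcy1 was at 35.4, 37.9 and 36.8 RPKM in TrkC:GFP, against 32.9, 36.7 and 35.7 RPKM in the mutants. Prkcb, a protein kinase C gene, was at 19.9, 20.9 and 17.5 RPKM in TrkC:GFP, against 2.08, 3.18 and 4.65 RPKM in the mutants. Its relative Prkcd was at 4.88, 1.83 and 4.68 RPKM in TrkC:GFP, against 16.8, 23.5 and 28.6 RPKM in the mutants. These isoforms changed in opposite directions, and Prkce was not called. Prkce was at 61.3, 52.8 and 62.7 RPKM in TrkC:GFP, against 58.5, 53.9 and 59.4 RPKM in the mutants. The fold changes on the log2 scale were -2.9 (edgeR adjusted p = 4.6e-18) for Rgs9, 2.39 (edgeR adjusted p = 6e-08) for Adcy8, 2.57 (edgeR adjusted p = 3.4e-18) for Prkcb and -2.59 (edgeR adjusted p = 3.2e-12) for Prkcd in the authors' deposited table.

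Potassium channel genes other than the voltage-gated alpha subunits numbered 29 expressed, of which 11 were called higher, 3 lower and 15 not called (median log2 fold change 0.45). Besides Kcnip2, the auxiliary subunit gene Dpp10, which joins the same A-type channels, was at 18.8, 18.3 and 12.6 RPKM in TrkC:GFP, against 5.43, 5.8 and 4.74 RPKM in the mutants. Kcnmb2, a beta subunit of calcium-activated BK channels, was at 4.54, 5.2 and 4.93 RPKM in TrkC:GFP, against 0, 0.225 and 0.076 RPKM in the mutants. Kcnk1, a leak channel gene, was at 24.2, 57.3 and 23.4 RPKM in TrkC:GFP, against 3.68, 6.02 and 8.46 RPKM in the mutants. All 3 were higher in every TrkC:GFP library. Kcnk18, the gene of the leak channel TRESK, was at 0.324, 0.0939 and 0.424 RPKM in TrkC:GFP, against 6.01, 9.94 and 6.14 RPKM in the mutants. Kcnt1, a sodium-activated channel gene, was at 5.18, 7.52 and 7.34 RPKM in TrkC:GFP, against 14, 13.6 and 13.2 RPKM in the mutants. Both were lower in every TrkC:GFP library. In the authors' deposited table the log2 fold changes were 1.63 (edgeR adjusted p = 6.5e-10) for Dpp10, 5.09 (edgeR adjusted p = 3.1e-18) for Kcnmb2, 2.54 (edgeR adjusted p = 3.4e-09) for Kcnk1, -4.58 (edgeR adjusted p = 1.4e-19) for Kcnk18 and -1.02 (edgeR adjusted p = 9.1e-05) for Kcnt1. Kcnmb2 had a limma log2 fold change of 6.22 with all libraries, 4.73 without the deepest mutant library and 7.15 without the middle mutant library. Kcnk18 had a limma log2 fold change of -4.89 with all libraries, -4.28 without the middle TrkC:GFP library. Both calls held.

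Of 38 expressed HCN, chloride and auxiliary sodium and calcium channel genes 5 were called higher, 8 lower and 25 not called (median log2 fold change -0.12). Ano1, a calcium-activated chloride channel gene, was at 3.07, 8.72 and 3.1 RPKM in TrkC:GFP, against 0.0676, 0.232 and 0 RPKM in the mutants. Its relative Ano2, a calcium-activated chloride channel gene of olfactory neurons, was at 0.0945, 0.0183 and 0.099 RPKM in TrkC:GFP, against 5.4, 6.49 and 3.12 RPKM in the mutants. Ano3, another family member, was at 7.19, 7.36 and 7.0 RPKM in TrkC:GFP, against 19.7, 31.5 and 25.9 RPKM in the mutants. Ano1 was thus higher and Ano2 and Ano3 lower, all without overlap. Nalcn, a sodium leak channel gene, was at 11.8, 10.1 and 10.3 RPKM in TrkC:GFP, against 2.78, 4.67 and 5.41 RPKM in the mutants. Cacna2d2, an auxiliary calcium channel subunit gene, was at 10.8, 9.46 and 9.88 RPKM in TrkC:GFP, against 22.3, 26.6 and 22.8 RPKM in the mutants. Nalcn was higher and Cacna2d2 lower in every TrkC:GFP library. Log2 fold changes in the authors' deposited table were 5.24 (edgeR adjusted p = 2.8e-14) for Ano1, -5.8 (edgeR adjusted p = 1.2e-27) for Ano2, -1.83 (edgeR adjusted p = 1.1e-12) for Ano3, 1.33 (edgeR adjusted p = 4.5e-06) for Nalcn and -1.25 (edgeR adjusted p = 2.5e-08) for Cacna2d2. Ano1 had a limma log2 fold change of 5.61 with all libraries, 6.47 without the middle mutant library. Without the deepest mutant library limma no longer called it (adjusted p = 0.0652). Ano2 had a limma log2 fold change of -6.27 with all libraries, -5.61 without the middle TrkC:GFP library.

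Neuropeptide and secretory granule genes numbered 17 expressed, of which 3 were called higher, 4 lower and 10 not called (median log2 fold change 0.12). With limma on the recovered reads 3 were called higher and 2 lower, as Calca and Cck, uneven between the mutant libraries, were not called. Adcyap1, the gene of the peptide PACAP, was at 61.8, 39.3 and 60.4 RPKM in TrkC:GFP, against 4.73, 6.23 and 8.01 RPKM in the mutants. Scg2, a granin gene, was at 56.8, 47.1 and 55.6 RPKM in TrkC:GFP, against 7.52, 4.4 and 12.8 RPKM in the mutants. Chgb, another granin gene, was at 236, 226 and 182 RPKM in TrkC:GFP, against 104, 74.4 and 111 RPKM in the mutants. All 3 were higher in every TrkC:GFP library. Vgf, which encodes another secreted granule protein, was at 3.08, 3.99 and 2.68 RPKM in TrkC:GFP, against 25.5, 16.2 and 23 RPKM in the mutants and was lower. Tac1, the substance P gene, was not called, at 49.6, 33.3 and 54.5 RPKM in TrkC:GFP, against 33.4, 53.3 and 39.5 RPKM in the mutants. For TrkC:GFP over mutants, the authors' deposited table held log2 fold changes of 3.1 (edgeR adjusted p = 3.2e-26) for Adcyap1, 2.7 (edgeR adjusted p = 9.5e-15) for Scg2, 1.16 (edgeR adjusted p = 1.6e-06) for Chgb and -2.71 (edgeR adjusted p = 5.9e-19) for Vgf.

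Of 71 expressed synaptic vesicle and release genes 9 were called higher, 5 lower and 57 not called (median log2 fold change 0.12). Syt17, a synaptotagmin relative, was at 12.4, 12 and 12.6 RPKM in TrkC:GFP, against 1.29, 0.698 and 2.07 RPKM in the mutants. Rab3b, a vesicle GTPase gene, was at 9.97, 6.51 and 6.7 RPKM in TrkC:GFP, against 47.5, 41 and 42.5 RPKM in the mutants. Its relative Rab3c was at 265 RPKM in TrkC:GFP and 80.4 RPKM in mutants in the authors' deposited table. The Rab3 genes thus changed in opposite directions. Cadps2, a factor of granule release, was at 4.82, 3.76 and 4.99 RPKM in TrkC:GFP, against 22.3, 31.1 and 15.5 RPKM in the mutants and was lower. Snap25, the synaptic SNARE gene, was not called, at 2802 RPKM in TrkC:GFP and 1807 RPKM in mutants in the authors' deposited table. That table gave log2 fold changes of 3.22 (edgeR adjusted p = 1.1e-14) for Syt17, -2.49 (edgeR adjusted p = 6.2e-24) for Rab3b, 1.72 (edgeR adjusted p = 2.2e-17) for Rab3c and -2.34 (edgeR adjusted p = 1.6e-15) for Cadps2.

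Of 44 expressed transporters 10 were called higher, 6 lower and 28 not called (median log2 fold change 0.35). Slc17a6, the gene of the vesicular glutamate transporter VGLUT2, was not called, at 111 RPKM in TrkC:GFP and 118 RPKM in mutants in the authors' deposited table. Slc4a4, a bicarbonate transporter gene, was at 22.8, 20.8 and 25.5 RPKM in TrkC:GFP, against 4.56, 7.32 and 3.56 RPKM in the mutants. Slc24a3, a sodium-calcium exchanger gene, was at 34, 24.9 and 28.2 RPKM in TrkC:GFP, against 83, 95.4 and 67.7 RPKM in the mutants. The bicarbonate transporter was higher and the exchanger lower, both without overlap. As log2 fold changes, the authors' deposited table lists 2.15 (edgeR adjusted p = 2.8e-14) for Slc4a4 and -1.5 (edgeR adjusted p = 1.6e-10) for Slc24a3.

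Calcium-binding proteins numbered 46 expressed, of which 6 were called higher, 8 lower and 32 not called (median log2 fold change -0.21). Beside Pvalb, the calmodulin regulator gene Pcp4 was at 1564 RPKM in TrkC:GFP and 408 RPKM in mutants in the authors' deposited table. Vsnl1, a neuronal calcium sensor gene, was there at 546 RPKM in TrkC:GFP and 158 RPKM in mutants. Both were higher, whereas the S100 genes below were lower in every TrkC:GFP library. S100a11 was at 9.9, 3.2 and 4.08 RPKM in TrkC:GFP, against 116, 75.6 and 78.7 RPKM in the mutants. S100a1 was at 1.92, 2.38 and 2.82 RPKM in TrkC:GFP, against 14.2, 12.9 and 14.2 RPKM in the mutants. The calmodulin-dependent kinase genes Camk4 and Camk2a changed in opposite directions. Camk4 was at 78, 55.9 and 64.9 RPKM in TrkC:GFP, against 11.3, 11.5 and 13.6 RPKM in the mutants. Camk2a was at 2.59, 3.29 and 2.77 RPKM in TrkC:GFP, against 12, 10.5 and 16.4 RPKM in the mutants. Deposited log2 fold changes, from the authors' deposited table, were 1.94 (edgeR adjusted p = 2.4e-13) for Pcp4, 1.78 (edgeR adjusted p = 8.7e-08) for Vsnl1, -3.9 (edgeR adjusted p = 1.3e-20) for S100a11, -2.47 (edgeR adjusted p = 1.2e-06) for S100a1, 2.45 (edgeR adjusted p = 6.1e-30) for Camk4 and -2.16 (edgeR adjusted p = 2.5e-16) for Camk2a.

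Whirlin belongs to a complex of scaffold and actin-bundling proteins known from hair cells, and of 15 expressed genes of this kind 4 were called higher, 2 lower and 9 not called (median log2 fold change 0.36). Lcp1, the actin-bundling plastin of white blood cells, was at 111, 127 and 88.7 RPKM in TrkC:GFP, against 5.55, 7.32 and 9.7 RPKM in the mutants. Pls1, another plastin gene, was at 35.6, 40.7 and 33.4 RPKM in TrkC:GFP, against 11.5, 17.6 and 16.6 RPKM in the mutants. Both were higher in every TrkC:GFP library, and Pls3 was not called. Pls3 was at 39.9, 37.4 and 34.2 RPKM in TrkC:GFP, against 35.2, 32.2 and 19.4 RPKM in the mutants. Ptprc, the gene of the leukocyte marker CD45, had 0, 1 and 1 reads in the TrkC:GFP libraries and 0, 4 and 0 in the mutant libraries. Fcer1g, a receptor subunit gene of myeloid cells, had 18, 6 and 10 reads in TrkC:GFP and 0, 0 and 0 in the mutants and was called higher by the authors' deposited table, with 6.61 (edgeR adjusted p = 0.00019) as log2 fold change. For Fcer1g, limma made the call with all libraries but not without the deepest or shallowest TrkC:GFP library or the deepest or middle mutant library (adjusted p up to 0.0785). The part of leukocyte RNA in the Lcp1 difference was not tested. Fscn1, the gene of the bundling protein fascin, was at 54.5, 42.6 and 56.3 RPKM in TrkC:GFP, against 106, 104 and 114 RPKM in the mutants and was lower. On the log2 scale, the fold changes in the authors' deposited table were 3.86 (edgeR adjusted p = 3.4e-47) for Lcp1, 1.27 (edgeR adjusted p = 7.2e-07) for Pls1 and -1.08 (edgeR adjusted p = 1.2e-06) for Fscn1.

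Of 29 expressed neurofilament, spectrin and nodal genes 5 were called higher, 6 lower and 18 not called (median log2 fold change -0.17). Nefl, the light neurofilament gene, was not called, at 5123 RPKM in TrkC:GFP and 7922 RPKM in mutants in the authors' deposited table. Nefm, the middle one, was not called either, at 3277 RPKM in TrkC:GFP and 4854 RPKM in mutants there. Prph, the intermediate filament gene of small-diameter neurons, was at 351 RPKM in TrkC:GFP and 833 RPKM in mutants, with a log2 fold change of -1.25 (edgeR adjusted p = 3.3e-09) in the authors' deposited table. Sarcomere genes also had reads in these sorted samples, and of 10 expressed 3 were called higher, 1 lower and 6 not called (median log2 fold change 0.95). The part of muscle RNA in these reads was not tested. Tnni1, a slow-muscle troponin gene, was at 38.8, 24.5 and 27.1 RPKM in TrkC:GFP, against 1.75, 0.516 and 0.199 RPKM in the mutants. Myl3, a myosin light chain gene, had 36, 93 and 30 reads in TrkC:GFP and none in the mutants. Both were clearly present in every TrkC:GFP library. Myh8, the perinatal myosin heavy chain gene, was at 1.04, 2.44 and 1.09 RPKM in TrkC:GFP, 0.188, 0.102 and 0.248 RPKM in wild-type PV and 0.126, 0.055 and 0.106 RPKM in the mutants. It was thus higher in TrkC:GFP than in both other groups, with log2 fold changes of 3.85 (edgeR adjusted p = 4.4e-11) over mutants and -3.03 (edgeR adjusted p = 2.7e-10) for wild-type PV over TrkC:GFP in the authors' deposited table. There Tnni1 had 4.86 (edgeR adjusted p = 1.4e-25) over mutants and Myl3 had 6.85 (edgeR adjusted p = 6.5e-10). Tnni1 had a limma log2 fold change of 5.28 with all libraries, 6.07 without the deepest mutant library.

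Transcription factors were called in both directions. Of 38 expressed homeobox, LIM and POU genes 10 were called higher, 10 lower and 18 not called (median log2 fold change 0.22). Tshz2, a teashirt zinc finger gene, was at 68.2, 61.2 and 62 RPKM in TrkC:GFP, against 8.13, 4.86 and 17.5 RPKM in the mutants. Tshz3, its relative, was at 10.6, 9.62 and 12.2 RPKM in TrkC:GFP, against 1.63, 1.94 and 5.76 RPKM in the mutants. In both cases the shallowest mutant library came closest to TrkC:GFP. Meis1, a homeobox gene, was at 0.319, 0.257 and 0.152 RPKM in TrkC:GFP, against 4.02, 4.76 and 4.36 RPKM in the mutants. Prrxl1 (Drg11), a factor of somatosensory neurons, was at 4.43, 3.87 and 3.3 RPKM in TrkC:GFP, against 13.9, 15 and 24.8 RPKM in the mutants. Both were lower in every TrkC:GFP library, Meis1 being near 0 there. Isl1, a factor of sensory neurons in general, was not called, at 42.4, 34.9 and 43.1 RPKM in TrkC:GFP, against 29, 37.7 and 24 RPKM in the mutants. The fold changes on the log2 scale were 2.66 (edgeR adjusted p = 1.4e-11) for Tshz2, 1.82 (edgeR adjusted p = 0.00016) for Tshz3, -4.04 (edgeR adjusted p = 2.1e-24) for Meis1 and -2.19 (edgeR adjusted p = 4.6e-12) for Prrxl1 in the authors' deposited table.

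Of 31 expressed bHLH, Sox and Kruppel-like genes 0 were called higher, 7 lower and 24 not called (median log2 fold change -0.18). None was called higher by the deposited edgeR test, although 1 had an unadjusted p under 0.05 in that direction, and limma called 1 higher. Ebf3, a helix-loop-helix factor gene, was at 8.68, 4.82 and 7.11 RPKM in TrkC:GFP, against 25.6, 25.4 and 20.4 RPKM in the mutants. Klf7, a Kruppel-like factor gene, was at 144, 141 and 113 RPKM in TrkC:GFP, against 309.9, 239 and 288 RPKM in the mutants. Sox6 was at 0.292, 0.0993 and 0.146 RPKM in TrkC:GFP, against 1.45, 1.03 and 1.6 RPKM in the mutants. All 3 were lower without overlap. Of 34 expressed nuclear receptors and retinoic acid genes 6 were called higher, 3 lower and 25 not called (median log2 fold change 0.15). Esrrg, an estrogen-related receptor gene known from gamma motor neurons, was at 64.7, 82.8 and 55.8 RPKM in TrkC:GFP, against 5.61, 3.36 and 6.72 RPKM in the mutants. Pgr, the progesterone receptor gene, was at 3.54, 4.6 and 2.81 RPKM in TrkC:GFP, against 0.0638, 0.0961 and 0.389 RPKM in the mutants. Both were higher in every TrkC:GFP library. Esr1, the gene of estrogen receptor alpha, was at 1.27, 1.03 and 1.33 RPKM in TrkC:GFP, 0.347, 0.266 and 0.47 RPKM in wild-type PV and 0, 0.14 and 0.226 RPKM in the mutants. In the authors' deposited table the log2 fold changes over mutants were -1.79 (edgeR adjusted p = 2.8e-11) for Ebf3, -1.07 (edgeR adjusted p = 2.2e-06) for Klf7, -2.84 (edgeR adjusted p = 2.4e-08) for Sox6, 3.7 (edgeR adjusted p = 1.3e-36) for Esrrg, 4.44 (edgeR adjusted p = 8.4e-16) for Pgr and 3.32 (edgeR adjusted p = 8.2e-05) for Esr1. Esr1 was lower in wild-type PV than in TrkC:GFP by the authors' deposited table, with -1.71 (edgeR adjusted p = 3e-05). Esr1 had a limma log2 fold change of 4.62 with all libraries, 2.79 without the deepest mutant library, 5.62 without the middle mutant library and 5.31 without the shallowest mutant library.

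Respiratory chain and ATP synthase genes numbered 79 expressed, of which 9 were called higher, 0 lower and 70 not called (median log2 fold change 0.28). The share called higher, 11.4%, was near the 8.8% of all 13162 genes. No gene was called lower by the deposited edgeR test, with 2 at an unadjusted p under 0.05 in that direction and 0 called lower by limma. Atp5g1, an ATP synthase subunit gene, was at 128, 146 and 130.5 RPKM in TrkC:GFP, against 81.8, 79.2 and 73.3 RPKM in the mutants. Ndufa9, a complex I subunit gene, was at 157, 176 and 158 RPKM in TrkC:GFP, against 117, 107 and 89.2 RPKM in the mutants. Mdh1 and Ldhb, given next, were named for their high level and not from this list. Mdh1, a cytosolic malate dehydrogenase gene, was at 359, 407 and 326 RPKM in TrkC:GFP, against 189.9, 175 and 231 RPKM in the mutants. These changes were small, with groups that did not overlap. Ldhb, a lactate dehydrogenase gene, was at 301, 542 and 256 RPKM in TrkC:GFP, against 216, 147 and 220.2 RPKM in the mutants, highest in the middle TrkC:GFP library, and limma no longer called it without that library or without any 1 of the 3 mutant libraries (adjusted p up to 0.132). Log2 fold changes in the authors' deposited table were 0.79 (edgeR adjusted p = 0.00126) for Atp5g1, 0.65 (edgeR adjusted p = 0.0111) for Ndufa9, 0.87 (edgeR adjusted p = 0.00015) for Mdh1 and 0.92 (edgeR adjusted p = 0.0118) for Ldhb. Of 27 expressed cholesterol synthesis genes 3 were called higher, 0 lower and 24 not called (median log2 fold change 0.08). There the deposited edgeR test called none lower, 4 had an unadjusted p under 0.05 in that direction and limma called 1 lower. Fdps, an enzyme gene of the pathway, was at 63.3, 62.8 and 56.2 RPKM in TrkC:GFP, against 41.4, 29.4 and 34 RPKM in the mutants, with 0.8 (edgeR adjusted p = 0.00403) in the authors' deposited table. Hmgcs1, an early enzyme gene, was not called, at 104, 82.3 and 96.3 RPKM in TrkC:GFP, against 83.1, 104 and 79.2 RPKM in the mutants.

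Secreted regulators of the TAFA family and others numbered 26 expressed, of which 10 were called higher, 6 lower and 10 not called (median log2 fold change 0.26). Fam19a2, an older symbol of Tafa2, was at 69, 52.8 and 65.9 RPKM in TrkC:GFP, against 19.96, 27.1 and 16.1 RPKM in the mutants. Fam19a4, or Tafa4, was at 14.4, 5.0 and 13.1 RPKM in TrkC:GFP, 2.24, 1.89 and 2.89 RPKM in wild-type PV and 0.678, 0.715 and 2.74 RPKM in the mutants. Every TrkC:GFP library of Fam19a4 was above both other groups. Rgma, a GPI-anchored guidance protein and BMP co-receptor gene, was at 14.4, 16 and 14.6 RPKM in TrkC:GFP, against 0.666, 0.769 and 0.296 RPKM in the mutants. Tnr, the gene of the matrix protein tenascin-R, was at 7.23, 7.95 and 7.08 RPKM in TrkC:GFP, against 0.13, 0.899 and 0 RPKM in the mutants. Both were higher in every TrkC:GFP library. Nell1, a secreted glycoprotein gene, was at 0.843, 0.563 and 0.562 RPKM in TrkC:GFP, against 9.09, 10.7 and 5.47 RPKM in the mutants. Nptx1, a neuronal pentraxin gene, was at 5.6, 3.95 and 6.98 RPKM in TrkC:GFP, against 15.7, 14.3 and 17.5 RPKM in the mutants, and both of these were lower. For TrkC:GFP over mutants, the authors' deposited table held log2 fold changes of 1.57 (edgeR adjusted p = 6.5e-10) for Fam19a2, 3.02 (edgeR adjusted p = 3.5e-06) for Fam19a4, 4.51 (edgeR adjusted p = 7.5e-44) for Rgma, 4.24 (edgeR adjusted p = 2.5e-10) for Tnr, -3.61 (edgeR adjusted p = 6.3e-18) for Nell1 and -1.52 (edgeR adjusted p = 4e-08) for Nptx1. Fam19a4 had -2.19 (edgeR adjusted p = 5.2e-07) in wild-type PV over TrkC:GFP in the authors' deposited table. Tnr had a limma log2 fold change of 5.31 with all libraries, 6.74 without the middle mutant library and 4.43 without the shallowest mutant library.

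Between wild-type PV and the other groups the same 13162 genes gave other numbers of calls. Over the mutants, 1556 (11.8%) were called higher and 1725 (13.1%) lower in wild-type PV, 3281 (24.9%) in all. Over TrkC:GFP, 141 (1.07%) were called higher and 405 (3.08%) lower in wild-type PV, 546 (4.15%) in all. These comparisons share groups with that of TrkC:GFP over mutants, so their calls are not independent of each other. Pvalb was at 312, 401 and 346 RPKM in TrkC:GFP, 183, 228 and 189.6 RPKM in wild-type PV and 93.4, 70.00 and 37.1 RPKM in the mutants. The authors' deposited table gave it -0.82 (edgeR adjusted p = 5.4e-05) for wild-type PV over TrkC:GFP and 1.57 (edgeR adjusted p = 1.5e-07) for wild-type PV over mutants, so wild-type PV lay between both. Ret was at 41.5, 17.5 and 38.8 RPKM in wild-type PV and was called higher there than in TrkC:GFP, with 1.52 (edgeR adjusted p = 0.00025) in the authors' deposited table. Slc17a8, the gene of the vesicular glutamate transporter VGLUT3, was at 2.41, 1.13 and 2.13 RPKM in TrkC:GFP, 0.617, 0.558 and 0.587 RPKM in wild-type PV and 1.04, 0.348 and 0.376 RPKM in the mutants. Its log2 fold changes in the authors' deposited table were 1.6 (edgeR adjusted p = 0.0231) in TrkC:GFP over mutants and -1.65 (edgeR adjusted p = 0.00025) in wild-type PV over TrkC:GFP. The first of these rests on a deposited call that limma did not make (adjusted p = 0.058, and up to 0.2 with a library left out).

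Markers of other cells are given for both groups, as the share of such cells in a sort is not known. In bulk samples, fewer cells of a type and less RNA per cell cannot be told apart. Of 18 genes of Schwann cells and satellite glia 14 were expressed, of which 2 were called higher, 3 lower and 9 not called (median log2 fold change -0.26). Their summed RPKM was 634, 324 and 414 in the TrkC:GFP libraries, against 751, 623 and 693 in the mutant libraries. Mbp, a myelin gene, was at 9.86, 5.55 and 8.09 RPKM in TrkC:GFP, against 1.16, 1.46 and 1.66 RPKM in the mutants. Mbp was higher in each TrkC:GFP library although the summed glial signal was not. Pmp22, which sensory neurons also express, was at 118, 106 and 56 RPKM in TrkC:GFP, against 404, 299.6 and 421 RPKM in the mutants. Gfap had no read in any of the 6 libraries, and Sox10 had 120, 12 and 34 reads in TrkC:GFP and 68, 45 and 25 in the mutants. As log2 fold changes, the authors' deposited table lists 2.46 (edgeR adjusted p = 3.5e-14) for Mbp and -2.0 (edgeR adjusted p = 9.3e-12) for Pmp22. The part of glial RNA in these differences was not tested.

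Of 22 genes of nociceptors, itch and C-fibre neurons 15 were expressed, of which 3 were called higher, 6 lower and 6 not called (median log2 fold change -0.33). Their summed RPKM was 173, 94 and 169.8 in the TrkC:GFP libraries, against 410.1, 297 and 484 in the mutant libraries, without Prph, whose reads were not recovered. P2rx3, an ATP receptor subunit gene, was at 51.1, 18.3 and 42.4 RPKM in TrkC:GFP, against 237, 188 and 187 RPKM in the mutants. It was lower in every TrkC:GFP library, and most of the summed signal in the mutants came from P2rx3 and Calca. Calca was uneven between the mutant libraries. The 3 genes called higher were Trpm8, Fam19a4 and Slc17a8, all described above. Trpv1, the capsaicin receptor gene, had 2, 1 and 7 reads in TrkC:GFP and 0, 0 and 0 in the mutants. The log2 fold change of P2rx3 in the authors' deposited table was -2.45 (edgeR adjusted p = 2.9e-13). The part of nociceptor RNA in the differences described was not tested.

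Signals of non-neural tissue were uneven between libraries. The 3 expressed of 11 kidney genes summed to 0.895, 1.22 and 0.786 RPKM in the TrkC:GFP libraries, against 37.3, 51.7 and 0.357 in the mutant libraries, with Ren2 holding most of the signal of the deepest and middle mutant libraries. Umod, a kidney gene, had 0, 0 and 0 reads in TrkC:GFP and 62, 67 and 0 in the mutants. The 3 expressed of 16 endothelial and mural genes summed to 2.84, 0.905 and 1.56 RPKM in the TrkC:GFP libraries, against 5.87, 7.94 and 2.85 in the mutant libraries. Cldn5, a defining endothelial gene, had 0, 0 and 0 reads in TrkC:GFP and 10, 15 and 0 in the mutants. These signals were thus lowest in the shallowest mutant library among the mutants. The 5 expressed of 11 fibroblast and meningeal genes summed to 10.8, 76.9 and 7.4 RPKM in the TrkC:GFP libraries, against 27.6, 27.5 and 6.93 in the mutant libraries, with Ptgds holding most of the middle TrkC:GFP library. The 3 expressed of 14 immune genes summed to 6.98, 6.6 and 6.61 RPKM in the TrkC:GFP libraries, against 5.5, 3.81 and 0.22 in the mutant libraries. Lyz2, the lysozyme gene of myeloid cells, had 47, 56 and 29 reads in TrkC:GFP and 39, 49 and 0 in the mutants. The 4 expressed of 8 erythroid genes summed to 1.12, 1.53 and 3.64 RPKM in the TrkC:GFP libraries, against 6.73, 8.85 and 0.56 in the mutant libraries. Of 10 motor and spinal neuron genes 1 was expressed, Slc18a3, the gene of the vesicular acetylcholine transporter, at 0, 0 and 0 RPKM in TrkC:GFP, against 4.0, 2.42 and 0 RPKM in the mutants. It was called by the authors' deposited table, with -6.88 (edgeR adjusted p = 2.3e-05), and not by limma (adjusted p = 0.0695). Chat, the gene of the enzyme that makes acetylcholine, had 1, 0 and 0 reads in TrkC:GFP and 16, 5 and 0 in the mutants, in the same mutant libraries as Slc18a3. Slc5a7, the choline transporter gene, had 28, 20 and 16 reads in TrkC:GFP and 0, 8 and 5 in the mutants, and Mnx1, a motor neuron factor gene, had none in any of the 6 libraries. The part of these tissues in the calls was not tested.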

How the data were processed

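Neurons of mouse dorsal root ganglia were dissociated and sorted by their fluorescent reporter, and RNA was amplified, made into poly-A libraries and sequenced from single ends, per the labels' protocols. The submitters' processing notes name mm10 and edgeR, with the aligner and counter not given in the sources used here. The authors deposited tables that hold a mean RPKM per group, edgeR log2 fold changes and p-values, raw and adjusted, for 23038 genes in each of 3 comparisons used here. The column headed Rx3 holds TrkC:GFP, by the name of the authors' table. The sign was checked against both RPKM columns. Genes with RPKM of 1 or more in either group were kept. The members, gene lists and named genes were chosen with earlier results of these data known.

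Each group RPKM proved to be the mean over 3 libraries of (reads + 1) divided by gene length and library size, so the whole reads of each library were searched for that give the deposited value. The tolerance was set after seeing how many genes several tolerances kept, and the search was adjusted until it recovered simulated tables. Library RPKM given here leaves out the added read. No library could be tied to a replicate. The recovered reads were fitted with limma 3.58.1 and voom in R 4.3.3, scaled by total counted reads, for 15371 genes with at least 10 reads over the 6 libraries, and tested on simulated data first. The recovery and these fits were devised after the data were seen. Lists are described by counts and medians, with no list test. Named genes were the markers, the 15 largest fold changes in each direction at 10 RPKM or more, up to 4 called genes a direction and 2 genes not called in each list, the most abundant called genes and those with the most reads against none. Gfap, Sox10, Ptprc, Lyz2, Trpv1, Cldn5, Chat, Slc5a7 and Mnx1 were named as markers, and Mrpl46 and Mrps11 as neighbours, after their values were seen. Some genes that this rule names are not reported here. Fold bounds against the floor of 3 reads cover counting error only. The standard errors of limma and the SDs include the spread between libraries.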

Additional observations from a re-analysis of the deposited data

How the results depend on the processing

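Over all 13162 genes, more were called higher than lower under each alternative, and no named gene that the authors' deposited table called changed sign. Some named genes that were not called did, such as Thy1 and Prkce. Among neuropeptides the lower calls outnumbered the higher ones in the deposited table, but not with limma. With 1158 genes called higher and 850 lower, Benjamini-Yekutieli adjustment left 725 higher. Asking also for a log2 RPKM ratio of 1 or more in size gave 783 higher and 620 lower, which became 598 and 487 with a pseudocount of 1, and 738 higher when the ratio was centred on its median. With each library left out in turn, limma on the recovered reads called 786 to 1007 genes higher and 521 to 805 lower. The lower counts of 521, 561 and 522 came without the deepest, the middle and the shallowest TrkC:GFP library. The cause of these falls was not tested, beyond the fact that each fit has fewer samples. limma with all libraries called 1195 higher and 796 lower, and median-of-ratios scaling, which shifts all log2 fold changes by -0.085, gave 997 and 959. Of the list counts under other thresholds and filters, 198 stayed close and 42 moved by more than 1.5 times. Of the single gene values, 232 lost the call, 30 gained one, and 146, all from a pseudocount, moved by more than the standard error of limma's log2 fold change, or 0.5 for genes with no such error; the other 3255 did none of these. Fits with edgeR and DESeq2 on reads had been planned if the whole table could be recovered; it could not, and they were not run. No paired analysis was possible because the deposited values carry no replicate number. The mutant library with 4510352 reads limits what can be seen of genes near 1 RPKM there.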
